A study of Mus musculus with 9 samples.

Results

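The genes described here build the lipid-linked oligosaccharide precursor of N-glycans in the endoplasmic reticulum (ER), transfer it to proteins and remove its first glucoses. They are 34 of the 53380 genes in the deposited tables, chosen by name for their place in this pathway. No measured value is in the rule, but earlier results of these data were known when the genes were chosen. They fall into 6 roles: dolichol synthesis and recycling (5 genes), dolichol-linked sugar donors (5), assembly on the cytosolic face (6), assembly on the lumenal face (6), the oligosaccharyltransferase (10) and glucose trimming (2). All 34 were found by symbol and all 34 passed the filter on low counts.

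An N-glycan begins as a sugar tree assembled on dolichol, a long polyisoprenoid lipid of the ER membrane. Sugars are first added on the cytosolic side from nucleotide sugars, the lipid is flipped, and further mannoses and glucoses are added in the lumen from dolichol-phosphate mannose and dolichol-phosphate glucose. The oligosaccharyltransferase then moves the finished tree to asparagines of nascent proteins. Glucosidases trim its glucoses, and the lectin chaperones bind the partly trimmed tree. Lymphoid cells use the pathway for their antigen receptors and most other surface proteins.

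RNA was sequenced from mouse leukemia cells of the T cell acute lymphoblastic type (T-ALL) of the EμSRα-tTA/tet-O-MYC model, in which a tetracycline-controlled transactivator under a lymphoid promoter drives a human MYC transgene that doxycycline switches off. The cells were grown in culture from tumors of such mice. The 3 groups, each of 3 libraries, were MYC on (mock treatment), MYC intermediate (doxycycline at 20 pg/mL) and MYC off (doxycycline at 500 pg/mL), all for 48 h. All 9 libraries carry both transgenes, so every comparison is between transgenic leukemia cells that differ in dose, and since doxycycline was added in both treated groups and not in MYC on, loss of MYC and the drug itself cannot be told apart. The labels do not say whether the 3 libraries of a group came from separate cultures, so each p-value measures only the spread between these libraries. Bulk RNA was measured, so fewer cells with a transcript and less of it per cell cannot be told apart. All levels are relative to the total of each library, so a change in total RNA per cell that all genes share would not show. Total RNA per cell was not measured, and unchanged, lower and higher are meant on this relative scale.

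The libraries held 18705516 to 39678799 counts. The human MYC transgene stood at 1260 ± 75.4 CPM (counts scaled to the library total) with MYC on, 408.3 ± 23.0 CPM at the intermediate level and 3.79 ± 0.454 CPM with MYC off (SD, n = 3 each), which matches the labels. All 8 T cell markers were present, and their summed level was 2441 to 2554 CPM with MYC on, 4028 to 4272 CPM at the intermediate level and 5255 to 5508 CPM with MYC off. Of 4 B cell markers 3 were at 0 in every library, and the fourth, Cd79a, left the sum at or below 0.267 CPM. Erythroid markers summed to at most 1.52 CPM (1 of 3 at 0 throughout) and stromal and endothelial markers to at most 0.259 CPM (2 of 4 at 0 throughout). Of 5 myeloid markers Lyz2, Adgre1 and Cd14 were at 0 in every library, while Csf1r and Itgam were counted and brought the sum to 26.5 to 30.9 CPM with MYC on, 32.2 to 35.9 CPM at the intermediate level and 40.5 to 43.6 CPM with MYC off. The myeloid sum was higher at lower MYC through Itgam (22.1 CPM in MYC off, 3.88 CPM in MYC on), whereas Csf1r was lower (19.6 CPM in MYC off, 24.8 CPM in MYC on, log2 fold change -0.38, adjusted p = 0.000818 in edgeR). The part of these T cell and myeloid markers in the results was not tested.

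Promoter windows from RefSeq (GRCm38.p6; 250 bases before to 50 after the start of the transcript) matched 29 of the 34 genes. The 5 without one were Alg2, Alg11, Dpagt1, Ostc and Tusc3. Shown first are the windows of Nus1 and Dhdds, the subunits of a single enzyme with different changes in MYC off, and of Mogs, the gene that fell most. Dolk carried the largest number of matches to CACGTG, the palindromic E-box that MYC with MAX binds, and Alg12 held the only match to the ER stress response element, CCAAT and CCACG with a spacer of 9 bases between them. Capitals mark CACGTG in Dhdds and Dolk and the ER stress response element in Alg12, and the windows of Nus1 and Mogs are all in lower case because neither motif was found in them.
Nus1 (chr10:52417297-52417596, plus strand): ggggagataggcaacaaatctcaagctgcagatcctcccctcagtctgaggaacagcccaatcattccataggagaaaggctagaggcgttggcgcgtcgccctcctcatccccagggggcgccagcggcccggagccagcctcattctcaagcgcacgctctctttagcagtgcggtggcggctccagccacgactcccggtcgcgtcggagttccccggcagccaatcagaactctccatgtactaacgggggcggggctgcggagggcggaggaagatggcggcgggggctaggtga
Dhdds (chr4:134000833-134001132, minus strand): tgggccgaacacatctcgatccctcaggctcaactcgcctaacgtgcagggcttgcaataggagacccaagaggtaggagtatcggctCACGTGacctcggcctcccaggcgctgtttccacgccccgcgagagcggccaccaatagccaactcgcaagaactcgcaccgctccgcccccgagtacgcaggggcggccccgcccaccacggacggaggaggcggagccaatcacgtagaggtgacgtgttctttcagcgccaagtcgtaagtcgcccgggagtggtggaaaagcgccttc
Mogs (chr6:83115256-83115555, plus strand): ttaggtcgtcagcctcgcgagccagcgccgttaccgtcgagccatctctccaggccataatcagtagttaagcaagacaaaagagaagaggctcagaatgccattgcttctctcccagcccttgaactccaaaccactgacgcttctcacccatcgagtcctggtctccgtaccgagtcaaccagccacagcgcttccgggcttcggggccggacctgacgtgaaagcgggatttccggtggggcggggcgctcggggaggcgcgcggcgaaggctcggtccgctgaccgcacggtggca
Dolk (chr2:30286305-30286604, minus strand): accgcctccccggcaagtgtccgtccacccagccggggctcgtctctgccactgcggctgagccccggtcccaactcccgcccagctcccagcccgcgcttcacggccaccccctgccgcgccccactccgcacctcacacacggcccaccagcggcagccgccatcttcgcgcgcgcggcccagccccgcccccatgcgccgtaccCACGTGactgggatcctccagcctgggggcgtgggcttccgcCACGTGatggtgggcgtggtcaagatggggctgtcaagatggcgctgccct
Alg12 (chr15:88819269-88819568, minus strand): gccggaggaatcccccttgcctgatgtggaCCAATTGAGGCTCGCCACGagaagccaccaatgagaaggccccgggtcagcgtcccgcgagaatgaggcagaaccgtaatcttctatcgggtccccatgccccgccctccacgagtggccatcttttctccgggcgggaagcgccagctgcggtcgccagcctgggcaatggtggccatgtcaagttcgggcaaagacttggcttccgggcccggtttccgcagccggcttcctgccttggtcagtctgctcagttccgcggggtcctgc

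On either strand, which for this palindrome is the same search, CACGTG stood in 6 of the 29 genes with a window (20.7%) and in 8.09% of 27025 genes (7.15% of 32851 windows of the same length). Those 27025 are all genes with a window, including genes too low to be tested here, whereas all members were tested. The first base of the match lay 43 and 1 bases before the start in Dolk, 23 before it in Dpm2, 97 in Magt1, 162 in Dhdds and 212 in Srd5a3, and in Alg1 it was base 4 of the transcript. Of these 6 genes 5 were not called in MYC off against MYC on, a comparison in which 54.9% of all genes tested were called (27.4% lower, 27.5% higher), and Srd5a3, the enzyme that reduces polyprenol to dolichol, was called higher. Among the 23 genes whose windows lack CACGTG, 10 were called lower, 3 were called higher and 10 were not called, so that the share called was near that of all genes. Genes without a window are not in this split, and of them Alg2, Alg11 and Dpagt1 were called lower and Tusc3 higher. The noncanonical E-box CACGCG, searched on both strands, matched in Alg6, Dad1, Dpm2 and Rpn1, of which Dpm2 also holds CACGTG (13.8% of 29, against 10.49% of all genes and 9.27% of all windows). The ER stress response element was found in Alg12 alone, 220 bases before the start, and in 0.137% of all genes and 0.119% of all windows. A match describes letters in a window and not a bound site.

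In MYC off against MYC on, 13 of the 34 genes were lower, 5 were higher and 16 did not pass the test (edgeR quasi-likelihood F test, Benjamini-Hochberg adjusted over 14098 genes, adjusted p under 0.01). Of all genes tested 54.9% were called in the same comparison, so the share of the pathway that was called (52.9%) was near the background. The directions were 38.2% lower and 14.7% higher for the pathway, against 27.4% lower and 27.5% higher for all genes. The median log2 fold change of the 34 was -0.08, and that of all genes tested was 0.03. The lowered genes were Mogs, Nus1, Alg9, Alg8, Alg2, Alg3, Alg11, Rpn1, Alg5, Stt3a, Dpagt1, Rpn2 and Ddost, and the raised ones Tusc3, Alg12, Mpdu1, Dolpp1 and Srd5a3. Cytosolic-face assembly and glucose trimming held no raised gene, and each of the other roles held both lowered and raised genes. On CPM scaled by TMM, the between-library scaling of the fit, every MYC off library lay below every MYC on library in 14 genes and above in 6, where 34.3% and 35.6% of all genes tested did so. On plain CPM, the values printed below, the counts were 13 (without Dolk) and 7 (with Dad1).

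**Figure D1:**
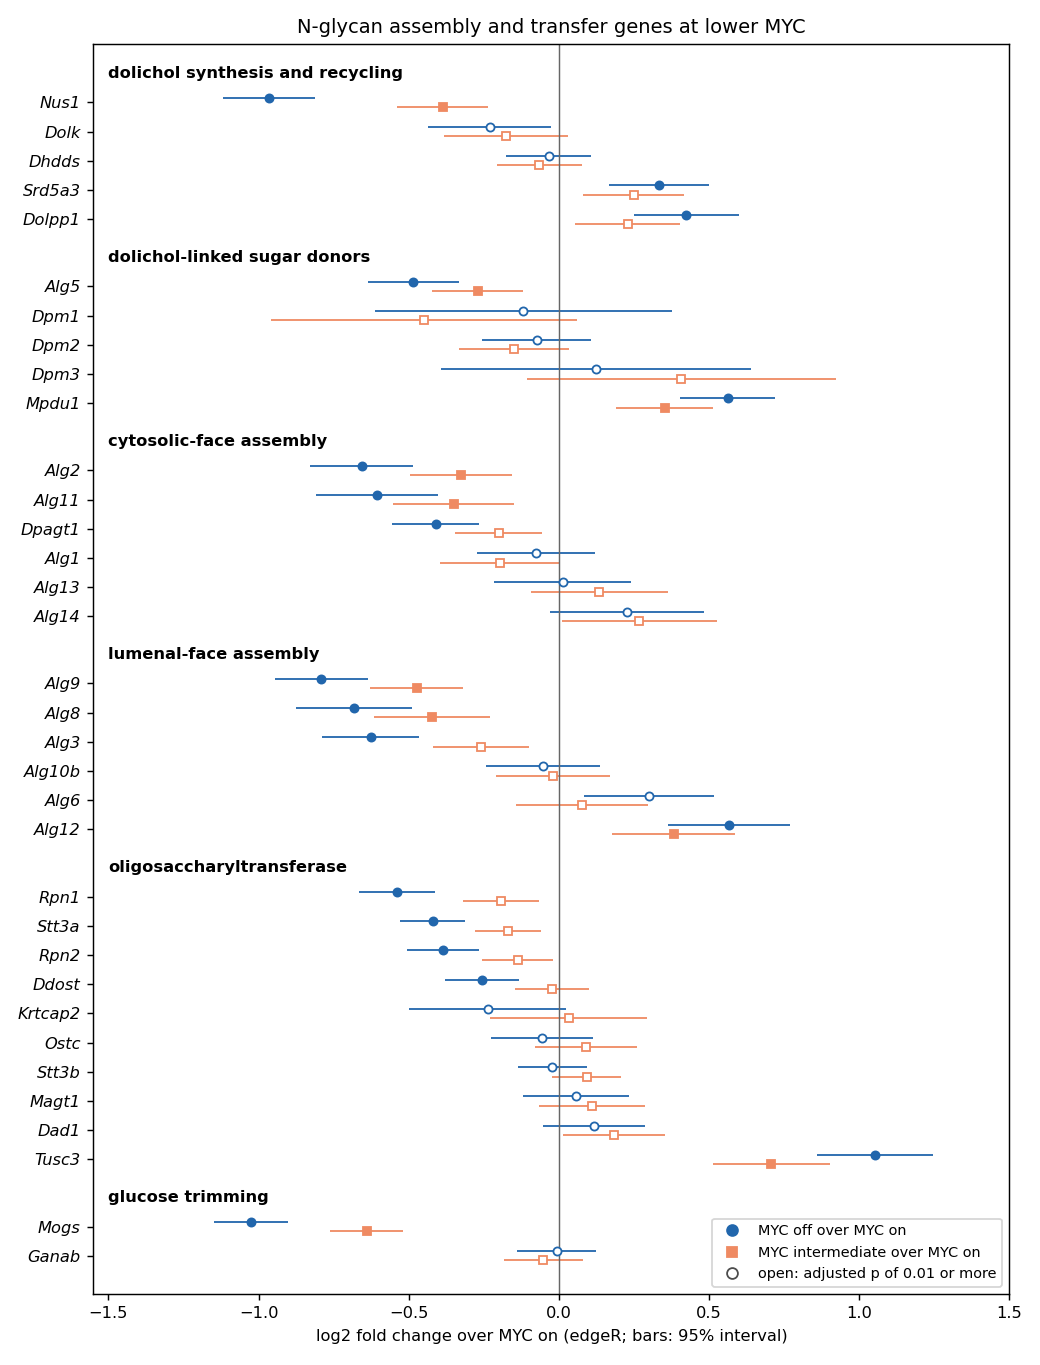
The log2 fold changes (x axis, edgeR, with 95% intervals) of the 34 genes, grouped by role, for MYC off over MYC on (blue circles) and MYC intermediate over MYC on (orange squares), with open symbols for an adjusted p of 0.01 or more. Nus1 and Mogs lie far to the left of the other genes of their roles, and Tusc3 stands farthest to the right at 1.05.

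In dolichol synthesis, the subunits of the cis-prenyltransferase that makes the lipid chain parted. Nus1, the accessory subunit without which the catalytic subunit is inactive, had 55.4, 58.0 and 51.1 CPM with MYC on, 41.9, 39.9 and 42.9 CPM at the intermediate level and 27.0, 30.0 and 29.3 CPM with MYC off. The 3 groups did not overlap and followed the dose, and Nus1 fell by 0.97 ± 0.07 (SE) on the log2 scale in MYC off against MYC on (adjusted p = 1.09e-08). Dhdds, the catalytic subunit, averaged 53.5 ± 0.656 CPM in MYC off and 53.5 ± 2.30 CPM in MYC on (SD, n = 3 each), and its log2 fold change was -0.03 with a 95% interval of -0.18 to 0.11. Srd5a3, the polyprenol reductase, was 0.33 ± 0.08 higher in MYC off (39.9 ± 0.640 CPM, against 30.9 ± 2.40 CPM in MYC on). That call was lost without MYC on replicate 2 (log2 fold change 0.26, adjusted p = 0.0126). Dolpp1, the phosphatase that returns spent dolichol to the cycle, was 0.42 ± 0.08 higher (32.2 ± 0.827 CPM in MYC off, 23.4 ± 1.80 CPM in MYC on). Dolk, the kinase that charges dolichol with phosphate, had a log2 fold change of -0.23 (95% interval -0.44 to -0.02) with an adjusted p of 0.0474, short of the threshold used here.

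Among the genes that make and present the lumenal sugar donors, Alg5 and Mpdu1 moved in opposite directions. Alg5, the dolichol-phosphate glucose synthase, had 61.1, 56.3 and 54.2 CPM with MYC on, 45.3, 48.0 and 47.8 CPM at the intermediate level and 43.1, 41.6 and 40.8 CPM with MYC off. Each treated library lay below each MYC on library, and the change in MYC off against MYC on was -0.48 ± 0.07 (adjusted p = 2.21e-05). Mpdu1, a membrane protein needed for the use of both dolichol-phosphate sugars, had 41.9, 41.7 and 44.7 CPM with MYC on, 48.3, 57.3 and 57.3 CPM at the intermediate level and 64.6, 64.2 and 65.2 CPM with MYC off. It followed the dose upward without overlap, and was 0.56 ± 0.07 higher in MYC off than in MYC on (adjusted p = 7.82e-06). The 3 subunits of dolichol-phosphate mannose synthase were not called. For the catalytic Dpm1 the interval was wide, -0.61 to 0.38, at 2.57 to 5.51 CPM in MYC off and 4.13 to 5.03 CPM in MYC on, and without MYC off replicate 1 its log2 fold change was 0.17. Dpm1 shares 895 of its 7489 exon bases with Gm20716, a gene on the same strand. The anchoring subunit Dpm3 was as imprecise (-0.39 to 0.64, at 3.58 to 4.34 CPM in MYC off and 3.15 to 3.96 CPM in MYC on), while Dpm2 stood at -0.07 (-0.26 to 0.11).

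On the cytosolic face, 3 of 6 enzymes fell and none rose, which at 50% called is near the 54.9% of all genes tested. Dpagt1, which starts the tree by placing the first N-acetylglucosamine phosphate and is the target of tunicamycin, averaged 35.6 ± 1.23 CPM in MYC off and 46.3 ± 2.58 CPM in MYC on (SD, n = 3 each; log2 fold change -0.41 ± 0.07, adjusted p = 7.48e-05). The second N-acetylglucosamine is added by an enzyme of paired subunits, the catalytic Alg13 and its membrane anchor Alg14. Alg13 had 9.64, 11.1 and 10.8 CPM with MYC on, 12.4, 11.6 and 10.3 CPM at the intermediate level and 10.2, 11.3 and 11.2 CPM with MYC off. Alg14 had 7.13, 6.63 and 6.54 CPM with MYC on, 8.44, 7.74 and 8.05 CPM at the intermediate level and 7.01, 8.35 and 9.03 CPM with MYC off. Libraries of the groups overlapped for both genes in MYC off against MYC on, with intervals of -0.22 to 0.24 for Alg13 and -0.03 to 0.48 for Alg14.

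The mannosyltransferases that follow did not move together. Alg1, which adds the first mannose, had a log2 fold change of -0.08 (-0.27 to 0.12) and shares 17.6% of its exon bases with Eef2kmt on the opposite strand. Alg2, which adds the next mannoses, had 42.9, 43.9 and 42.7 CPM with MYC on, 32.3, 35.3 and 35.0 CPM at the intermediate level and 29.1, 29.6 and 25.2 CPM with MYC off. Alg11, which adds the last mannoses before the flip, had 30.5, 29.4 and 24.6 CPM with MYC on, 23.7, 20.6 and 21.2 CPM at the intermediate level and 18.6, 19.0 and 19.0 CPM with MYC off. Both genes followed the dose downward with no overlap between neighbouring groups. Alg2 fell by 0.66 ± 0.08 (adjusted p = 3.04e-06) and Alg11 by 0.61 ± 0.10 (adjusted p = 4.17e-05) on the log2 scale in MYC off against MYC on.

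On the lumenal face, the mannosyltransferases Alg3 and Alg9 fell while Alg12, which acts between the additions by Alg9, rose. Alg3, which adds the first lumenal mannose, had 42.0, 42.1 and 42.3 CPM with MYC on, 32.1, 37.3 and 35.5 CPM at the intermediate level and 27.1, 27.0 and 29.7 CPM with MYC off. Alg9, which acts directly before and again directly after Alg12, had 50.8, 50.6 and 52.4 CPM with MYC on, 36.2, 37.2 and 36.6 CPM at the intermediate level and 32.1, 29.2 and 29.6 CPM with MYC off. Both fell with the dose with no library out of order, by 0.63 ± 0.08 for Alg3 (adjusted p = 2.73e-06) and 0.79 ± 0.07 for Alg9 (adjusted p = 1.23e-07) in MYC off against MYC on. Alg12 had 18.9, 19.7 and 22.6 CPM with MYC on, 26.3, 23.8 and 29.3 CPM at the intermediate level and 31.4, 31.5 and 30.1 CPM with MYC off. Every MYC off library lay above every MYC on library, with a log2 fold change of 0.57 ± 0.10 (adjusted p = 8.79e-05). Overlapping antisense genes share part of the exons of these genes, and the reads of such stretches cannot be assigned without strand: 8.46% of Alg3 with Eef1akmt4 (itself 2.43 lower in MYC off on the log2 scale) and 12.9% of Alg9 with 1110032A03Rik (log2 fold change -0.30).

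The glucosyltransferases that cap the tree also differed. Alg8, which adds the second glucose, had 33.1, 30.7 and 30.1 CPM with MYC on, 21.01, 24.8 and 23.8 CPM at the intermediate level and 20.99, 20.5 and 18.3 CPM with MYC off. All treated libraries lay below all MYC on libraries, and Alg8 fell by 0.68 ± 0.09 in MYC off against MYC on (adjusted p = 7.69e-06). Alg6, which adds the first glucose, had a log2 fold change of 0.30 (0.08 to 0.52, adjusted p = 0.0172) and was not called. For Alg10b, which adds the last glucose, the change was -0.05 (-0.24 to 0.14).

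**Figure D2:**
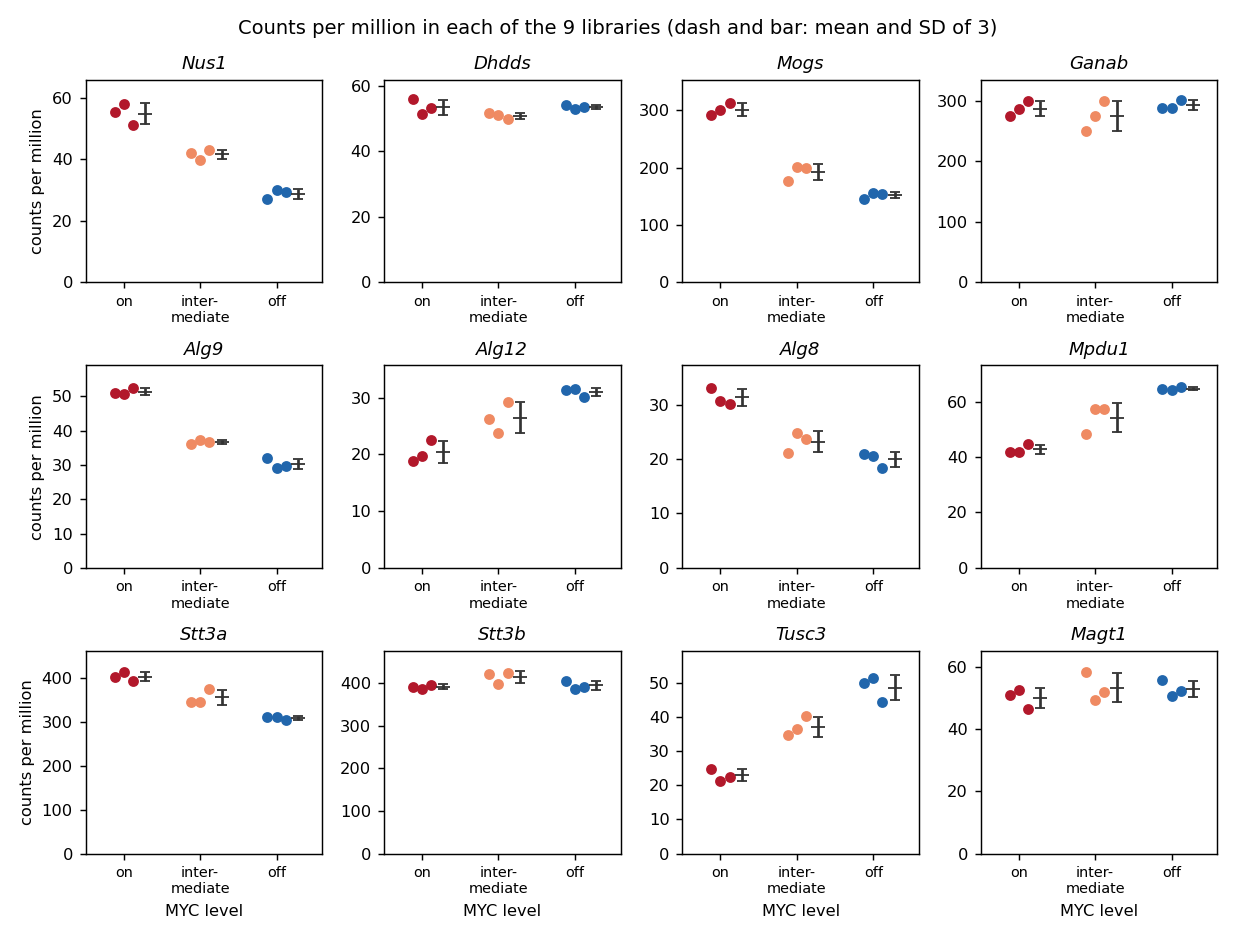
The level in CPM (y axis, from 0) of 12 genes in each of the 9 libraries, for MYC on, MYC intermediate and MYC off from left to right, with the mean and SD of the 3 libraries beside the points. Nus1, Mogs, Alg9 and Alg8 step down, Alg12, Mpdu1 and Tusc3 step up, and for Dhdds, Ganab, Stt3b and Magt1 the MYC off and MYC on libraries overlap.

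In the oligosaccharyltransferase, 4 of 10 subunits fell, 1 rose and 5 were not called (40% lower and 10% higher, against 27.4% and 27.5% of all genes tested). Of the core shared by both forms of the complex, Rpn1 (ribophorin I) had 372.8, 362.1 and 377.0 CPM with MYC on, 290.4, 337.5 and 338.2 CPM at the intermediate level and 260.7, 262.8 and 260.5 CPM with MYC off. The groups did not overlap, and Rpn1 was 0.54 ± 0.06 lower in MYC off than in MYC on on the log2 scale (adjusted p = 9.41e-07). Rpn2 (ribophorin II) changed by -0.39 ± 0.06 and Ddost, the OST48 subunit, by -0.26 ± 0.06 (adjusted p = 1.84e-05 and 0.00108). Dad1, the small core subunit named as a defender against cell death, had a log2 fold change of 0.12 (-0.05 to 0.29). It lies 11272 bases from Trac, the T cell receptor alpha constant gene, which was 2.54 higher in MYC off on the log2 scale.

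The catalytic subunits were unequal. Stt3a, which works beside the translocon as the chain emerges, had 403.3, 414.0 and 393.9 CPM with MYC on, 346.7, 346.7 and 375.2 CPM at the intermediate level and 310.9, 311.1 and 304.2 CPM with MYC off. Stt3b, which also glycosylates sites that Stt3a has skipped, had 391.7, 386.2 and 396.9 CPM with MYC on, 421.9, 397.0 and 424.3 CPM at the intermediate level and 406.2, 387.3 and 390.5 CPM with MYC off. Stt3a fell without overlap, by 0.42 ± 0.05 in MYC off against MYC on (adjusted p = 2.91e-06), whereas the Stt3b libraries overlapped and its log2 fold change was -0.02 (-0.14 to 0.09). Of the subunits particular to the STT3A form, Ostc had a log2 fold change of -0.06 (-0.23 to 0.11) and Krtcap2 of -0.24 (-0.50 to 0.025). Krtcap2 passed the test without MYC off replicate 1 (-0.40, adjusted p = 0.0067), and it shares 15.7% of its exon bases with Trim46 on the opposite strand.

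The thioredoxin-like subunits of the STT3B form, which are alternatives to each other, also parted. Tusc3 had 24.8, 21.4 and 22.4 CPM with MYC on, 34.6, 36.4 and 40.3 CPM at the intermediate level and 50.0, 51.4 and 44.4 CPM with MYC off. Magt1 had 50.8, 52.5 and 46.3 CPM with MYC on, 58.5, 49.5 and 51.8 CPM at the intermediate level and 55.7, 50.7 and 52.4 CPM with MYC off. Tusc3 rose in order of dose with no overlap and had the largest absolute log2 fold change of the 34 genes, 1.05 ± 0.09 (adjusted p = 5.60e-08), while the Magt1 libraries overlapped (0.06, interval -0.12 to 0.23).

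Glucose trimming showed the same split. Mogs, glucosidase I, which removes the outermost glucose, had 291.5, 300.2 and 313.2 CPM with MYC on, 176.1, 201.3 and 199.3 CPM at the intermediate level and 145.9, 155.2 and 154.3 CPM with MYC off. Its groups did not overlap at either step of the dose, and in MYC off against MYC on Mogs fell by 1.03 ± 0.06 (adjusted p = 3.53e-10), the deepest fall of the pathway. Ganab, the catalytic subunit of glucosidase II, which removes the remaining glucoses, averaged 292.2 ± 8.20 CPM in MYC off and 286.7 ± 12.5 CPM in MYC on (log2 fold change -0.01, interval -0.14 to 0.12).

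Ratios of paired genes within a library do not depend on scaling between libraries. For Stt3b over Stt3a the log2 ratio of counts was -0.04, -0.10 and 0.01 with MYC on, 0.28, 0.20 and 0.18 at the intermediate level and 0.39, 0.32 and 0.36 with MYC off. Every MYC off library lay above every MYC on library, and the mean was 0.40 higher in MYC off, a 1.32-fold shift (exact two-sided permutation test p = 0.1, the smallest that 3 against 3 can give, adjusted to 0.15 over the 3 pairs fixed for testing). In TPM, counts scaled for gene length and library total, Stt3b made up 67.3% ± 0.849 of the sum of the pair in MYC on. It made up 71.2% ± 0.804 in MYC intermediate and 73.0% ± 0.482 in MYC off (SD, n = 3 each). These shares rest on the deposited length of each gene, 8948 bases for Stt3a and 4221 for Stt3b. The lengths of the transcripts present were not tested. For Tusc3 over Magt1 the log2 ratio was -1.03, -1.30 and -1.05 with MYC on, -0.76, -0.44 and -0.36 at the intermediate level and -0.16, 0.02 and -0.24 with MYC off. The 3 groups did not overlap, and the mean was 1.00 higher in MYC off than in MYC on (exact permutation p = 0.1, adjusted to 0.15). In TPM, Tusc3 was 38.4% ± 2.40 of the pair with MYC on, 48.7% ± 3.61 at the intermediate level and 55.5% ± 2.23 with MYC off. The order of the paired genes turned on this scale, which divides by gene length. On counts the mean log2 ratio in MYC off was -0.13, so Tusc3 stayed the lower of the pair on average. Alg14 over Alg13 differed by 0.21 in MYC off against MYC on, with overlapping libraries (exact permutation p = 0.2, adjusted to 0.2).

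Other pairs were chosen after their values were seen and are given as description. The log2 ratio of Nus1 over Dhdds was -1.01, -0.82 and -0.87 in MYC off, against -0.01, 0.18 and -0.06 in MYC on, a mean difference of -0.93 on the log2 scale. Mogs over Ganab was at -0.98, -0.89 and -0.97 in MYC off and at 0.09, 0.07 and 0.06 in MYC on, a difference of -1.02. The SD of the log2 ratio of Mogs over Ganab was 0.05 in MYC off and 0.01 in MYC on. For Nus1 over Dhdds it was 0.10 in MYC off and 0.12 in MYC on. Alg12 over Alg9 was at -0.03, 0.11 and 0.03 in MYC off, against -1.43, -1.36 and -1.21 in MYC on, a difference of 1.37 or 2.58-fold.

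**Figure D3:**
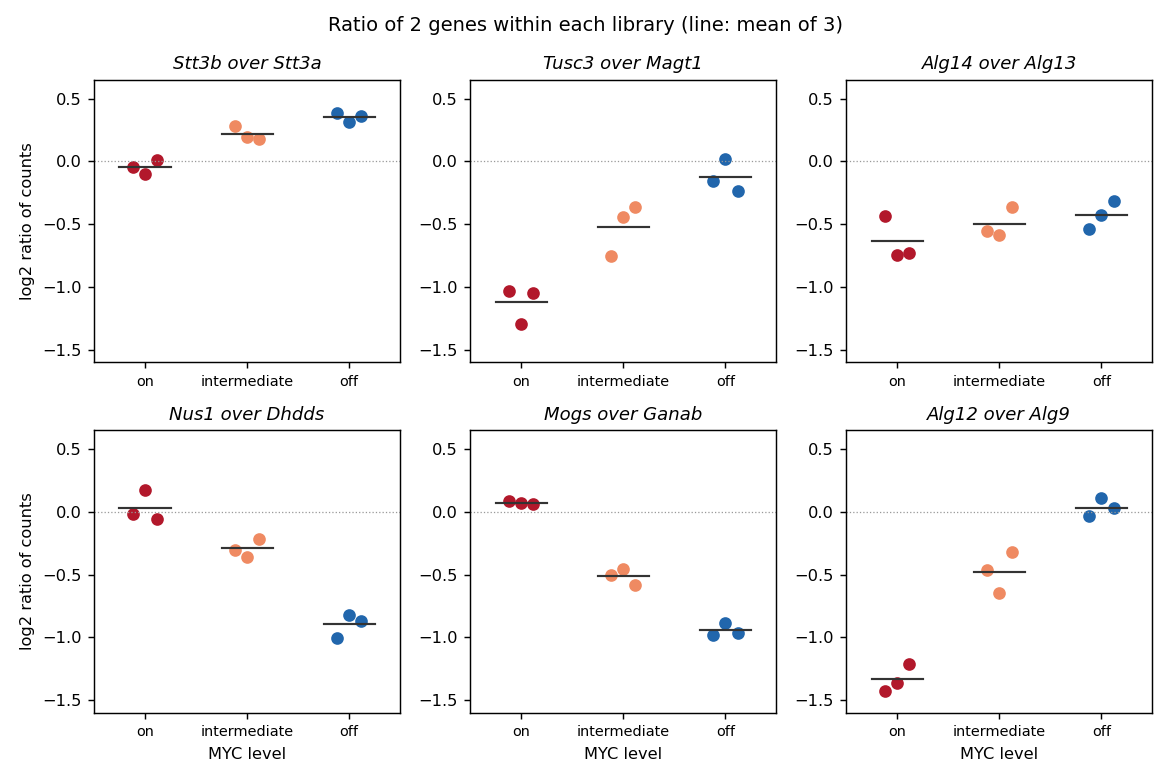
The log2 ratio of counts of 2 genes within each library (y axis) in MYC on, MYC intermediate and MYC off, with a line at the mean of 3 libraries. In every pair but Alg14 over Alg13 the MYC off and MYC on libraries do not overlap, and MYC intermediate lies between them.

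The intermediate dose divides the change into steps. In MYC intermediate against MYC on, 7 genes were lower (Mogs, Alg9, Alg8, Nus1, Alg11, Alg2 and Alg5) and 3 higher (Tusc3, Alg12 and Mpdu1), which is 29.4% of the 34 against 34.6% of all genes tested (17.2% lower, 17.4% higher). Without MYC on replicate 1 or without MYC on replicate 2 the number called was 6, and Mogs, Alg9, Alg8, Nus1, Tusc3 and Mpdu1 were called under every alternative setting. In MYC off against MYC intermediate, 9 genes were lower (Nus1, Mogs, Alg3, Rpn1, Alg2, Alg9, Stt3a, Rpn2 and Ddost) and Tusc3 was higher, 29.4% against 24.7% of all genes tested (14.7% lower, 9.95% higher). That number was 4 without MYC intermediate replicate 2, 6 without MYC off replicate 2 and 6 without MYC off replicate 3, and Nus1, Mogs, Rpn1 and Stt3a were called under every alternative setting. These comparisons share the MYC intermediate libraries.

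Of the 18 genes called in MYC off against MYC on, 5 were called in both steps (Nus1, Alg2, Alg9, Tusc3 and Mogs), 5 in the step to the intermediate dose alone (Alg5, Mpdu1, Alg11, Alg12 and Alg8), 5 in the step to MYC off alone (Alg3, Stt3a, Rpn1, Rpn2 and Ddost) and 3 in neither (Srd5a3, Dolpp1 and Dpagt1). The same split was not counted over all genes called, so it is not shown to be particular to the pathway. The 4 oligosaccharyltransferase subunits that fell were all called in the later step alone, at log2 changes of -0.35 (Rpn1), -0.25 (Stt3a), -0.25 (Rpn2) and -0.23 (Ddost) there, and of -0.19, -0.17, -0.14 and -0.02 in the earlier one. A direct test of whether the steps differed in size called 0 of the 34 genes, against 1.89% of all genes tested (266 genes, or 430 with the replicate number as a block). DESeq2 also called 0 of the 34, and 3 had an unadjusted p under 0.05 in edgeR: Stt3b, Tusc3 and Mogs. A call in a single step is therefore not shown to be a difference between the steps. Across all 3 groups, 12 genes fell and 4 rose in the order of the dose with no overlap between libraries on the TMM scale, as 16.9% and 14.9% of all genes tested did. In CPM the counts were 12 and 5, Alg12 being the gene added.

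Compared per length in TPM, the pathway spanned a wide range of abundance. Ddost was at 376.9 ± 10.3 TPM in MYC off and 442.7 ± 13.6 TPM in MYC on, the highest of the 34 in both groups. Mogs was next in MYC on at 351.1 ± 13.1 TPM, above Stt3b at 312.3 ± 3.11 TPM, and in MYC off it stood at 175.8 ± 8.35 TPM, below Stt3b at 312.9 ± 4.44 TPM, Ganab at 253.3 ± 10.2 TPM, Rpn2 at 210.4 ± 3.22 TPM and Rpn1 at 193.9 ± 3.09 TPM. Nus1 fell to 19.8 ± 1.33 TPM in MYC off, against 37.9 ± 2.56 TPM in MYC on, while its partner Dhdds was at 47.3 ± 0.470 TPM and 47.6 ± 1.77 TPM in the same groups. At the low end Dpm1 was at 2.03 ± 0.779 TPM in MYC off and 2.12 ± 0.235 TPM in MYC on. Dpm1 shares 895 of its 7489 exon bases with Gm20716 on the same strand, and how such reads were counted is not given. Whether this lowers its level was not tested.

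The lists of genes that feed or follow the pathway were described in the same way, by counts and medians in MYC off against MYC on, where 27.4% of all genes tested were lower and 27.5% higher. All 7 genes from mevalonate to farnesyl diphosphate, the precursor of dolichol and of cholesterol, were lower (median -0.92), led by Idi1 (-1.30 ± 0.16), Hmgcs1 (-1.13 ± 0.05) and Mvd (-0.97 ± 0.07). Of 10 genes that supply nucleotide sugars 5 were lower and none higher (median -0.28). Gnpnat1 and Pgm3, consecutive enzymes toward UDP-N-acetylglucosamine, changed by -1.47 ± 0.13 and -1.08 ± 0.09, and the phosphomannomutase Pmm1 by -0.69 ± 0.07. Gfpt1 and Uap1, which act on the same route to UDP-N-acetylglucosamine, were not called (log2 fold changes -0.19 and 0.07). Farnesyl diphosphate is the starting substrate of Dhdds with Nus1, and UDP-N-acetylglucosamine that of Dpagt1.

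Downstream, 5 of the 6 tested genes of the lectin folding cycle were lower and 1 higher (median -0.47). Canx, the membrane lectin chaperone calnexin, was at 467.9, 399.3 and 425.8 CPM in MYC off, against 951.3, 874.3 and 897.4 CPM in MYC on (-1.11 ± 0.08). Lman1, the cargo lectin of ER exit, and its partner Mcfd2 changed by -1.11 ± 0.06 and -0.51 ± 0.10. Mannose trimming and disposal leaned the other way, with 4 higher, 1 lower and 4 not called of 9 (median 0.20). Edem1, which marks misfolded glycoproteins for removal, was at 3706, 3800 and 3888 CPM in MYC off and 1723, 1725 and 1675 CPM in MYC on (1.12 ± 0.05), and the lectin Os9 and the deglycosylating Ngly1 were 0.50 ± 0.06 and 0.51 ± 0.06 higher.

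Of the 4 other core factors, Ost4, the smallest subunit of the oligosaccharyltransferase, was lower (-0.42 ± 0.13) and Prkcsh, the partner of Ganab in glucosidase II, was higher (0.32 ± 0.06). Among 10 translocon genes 2 were lower, Ssr2 (-0.36 ± 0.06) and Ssr1 (-0.28 ± 0.07), Tram1 was higher (0.51 ± 0.07) and 7 were not called (median -0.01). Dolichol-phosphate mannose also serves other glycosylations, and of their 7 tested genes 4 were lower and 2 higher (median -0.40). The C-mannosyltransferases moved apart there, with Dpy19l1 at 23.6, 23.1 and 22.1 CPM in MYC off and 80.0, 82.2 and 78.4 CPM in MYC on (-1.84 ± 0.09) and Dpy19l3 0.64 ± 0.08 higher, and Pigv, a mannosyltransferase of glycosylphosphatidylinositol anchors, was 0.71 ± 0.10 higher. Over all 53 tested genes of these lists 25 were lower, 9 higher and 19 not called, or 47.2% lower and 17.0% higher.

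**Figure D4:**
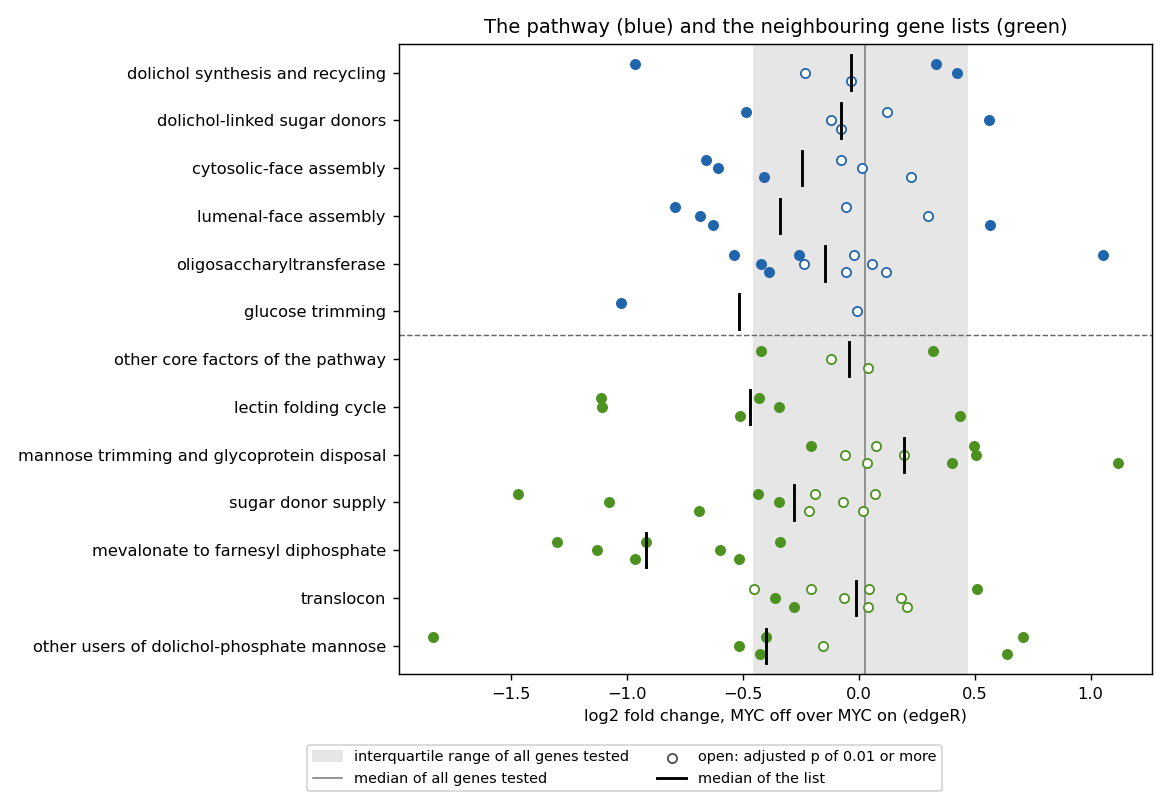
The log2 fold change of MYC off over MYC on (x axis) for each gene of the 6 roles of the pathway (blue) and of the 7 neighbouring lists (green), with list medians as black lines, open points for an adjusted p of 0.01 or more, and the interquartile range of all genes tested in grey. All 7 mevalonate genes lie below 0, while most roles of the pathway hold genes on both sides.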

How the data were processed

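RNA-seq data of 9 T-ALL libraries (3 groups of 3) were analysed from the tables that the authors deposited, 1 per library. The deposited gene counts are whole reads per gene and were not normalized, and the TPM values in the same tables were computed by the authors. Per the labels' processing notes, reads were trimmed with cutadapt 1.16, aligned with STAR 2.5.4b to mm10 and counted with featureCounts. Which annotation release was used, and whether reads were counted by strand, is not given in the sources used here. The other derived columns were not used, and no library column went unassigned.

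Gene symbols were taken from GENCODE M21, which held 53274 of the 53380 gene IDs. Every member and gene list was chosen with earlier results of these data known. Counts were fitted with edgeR 4.0.16 (R 4.3.3, limma 3.58.1) in a single model of 9 libraries with group as the factor, filterByExpr, TMM scaling, the quasi-likelihood F test and Benjamini-Hochberg adjustment over 14098 genes, and genes with an adjusted p under 0.01 were called. CPM in the text are counts over the library total, overlap of libraries was counted over all genes on TMM-scaled log2 CPM, and TPM served only for comparing genes with each other. Ratios within a library were tested by exact two-sided permutation, where 3 against 3 allows no p below 0.1. On simulated counts of MYC off against MYC on (13872 genes), the fit recovered 47 of 50 genes changed 0.5-fold and 37 of 50 changed 0.667-fold, 35 of 50 changed 1.5-fold and 50 of 50 changed 2-fold, with 1 false call. The simulation gave all genes the same spread and changed only these genes, a far smaller share than was called in the data. It therefore checks that the fit runs correctly and does not give its recovery or false calls on these libraries. Values in every library were given for the called members with the 12 largest absolute log2 fold changes in MYC off against MYC on, for Stt3a and Stt3b, and for the pairs Magt1 and Tusc3, and Alg13 and Alg14. Of each neighbouring list, up to 3 called genes with the largest absolute log2 fold change were named, and Gfpt1 and Uap1 were named besides.

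The 18 alternatives were DESeq2 1.42.0, its size factors in edgeR, scaling by library size alone, no count filter, a filter of 1 CPM in 3 libraries, counts thinned to an equal depth, the 6 libraries compared alone, a threshold of 0.05, each library left out in turn and the replicate number as a block. The pairing check correlated deviations from the group means over 9897 genes. For MYC off with MYC on the same-numbered libraries gave r = 0.38, 0.26 and 0.22. For MYC intermediate with MYC on they gave 0.13, -0.19 and -0.17, and for MYC off with MYC intermediate 0.37, 0.03 and 0.08. Correlations between libraries of different number were not computed, so these values do not decide whether the numbers pair the libraries. The labels give replicate numbers and state no pairing.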

Additional observations from a re-analysis of the deposited data

How the results depend on the processing

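In MYC off against MYC on, 17 of the 18 called genes stayed called under all 18 alternative settings, the exception being Srd5a3 (0.26 without MYC on replicate 2). With the replicate number as a block the called members were the same 18, 10, 10 and 0 in the 4 comparisons, and the genes called overall numbered 7962 with the block against 7734 without it, 5192 against 4884, 3859 against 3476 and 430 (73 of these higher) against 266. In MYC intermediate against MYC on, leaving out a library gave 6 to 9 members called (4 to 6 lower, 2 to 3 higher), and an adjusted p under 0.05 gave 16 (11 lower, 5 higher). In MYC off against MYC intermediate, leaving out a library gave 4 to 10 members called (4 to 10 lower, 0 to 1 higher), thinned counts gave 0 higher and an adjusted p under 0.05 gave 2 higher. There 852 to 1330 genes overall were higher without a library, and 5241 genes were called at 0.05 (2379 higher). The difference between the steps called 122 to 386 genes overall without a library (113 to 322 lower, 6 to 64 higher), 850 with no count filter (695 lower, 155 higher), 488 with DESeq2 (389 lower, 99 higher) and 722 at 0.05 (584 lower, 138 higher). The mean ratio difference of Stt3b over Stt3a ran from 0.37 to 0.42 without a library, that of Tusc3 over Magt1 from 0.91 to 1.06 and that of Alg14 over Alg13 from 0.15 to 0.31.

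The log2 fold changes of MYC off against MYC on that turned sign were all of genes not called. Stt3b gave 0.011 and Ganab 0.027 with library size alone, and Ganab 0.00088 with thinned counts. Alg13 gave -0.00056 with no count filter, -0.0091 with the 6 libraries alone and -0.042 with thinned counts. Without a library the values ran from -0.074 to 0.0020 for Dhdds, from -0.29 to 0.17 for Dpm1, from -0.042 to 0.043 for Alg13, from -0.13 to 0.011 for Alg1, from -0.13 to 0.0053 for Ostc, from -0.00075 to 0.093 for Magt1 and from -0.033 to 0.029 for Ganab. The cause was not tested in any of these.

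Levels of a few CPM limit Dpm1 and Dpm3, whose intervals are the widest of the 34 genes. No intervals for shares of counts were computed. Groups of 3 libraries are too small for a test of outlying libraries, and the exact tests of ratios could not pass 0.05 at this size. Reads shared by overlapping genes could not be assigned to a strand.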
